A study of Mus musculus with 9 samples.

Results

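The genes described here were 51 members of the mouse cell cycle and spindle checkpoint machinery, taken by name from the 53819 gene rows of the count tables. They were followed in 9 libraries of total RNA from C57BL/6J embryos at the morula stage, when the cleaving embryo compacts. All embryos were made by in vitro fertilization with the Nakagata method in CARD media, and the groups differed in the treatment of the sire. Of the libraries, 3 came from control sires, 3 from sires labelled 6% EtOH and 3 from sires labelled 10% EtOH, where EtOH is ethanol. The libraries are named here by group and a number from 1 to 3, which pairs nothing across groups. The labels give neither the route nor the length of the exposure, nor how many embryos or sires stood behind a library, so the p-values speak to the spread among these libraries alone, and that spread can be technical.

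Cell division is driven by cyclins, which rise and are destroyed in turn, and by the cyclin dependent kinases that they activate. Cyclins D and E with their kinases open the way to DNA replication, cyclins A and B with Cdk1 bring the cell into mitosis, and the spindle checkpoint holds back separation of the chromosomes until each kinetochore is attached to the spindle. Cleavage divisions split the embryo without growth between them, and in the mouse they begin without centrioles, which are made anew later before implantation.

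Library totals ran from 6263465 to 27619281 counts, and the members took 0.948 to 1.54 percent of them. All 51 members passed the filter on low counts that left 12488 genes. In 48 members counts were found in every library, while Ccnd1, Ccnd2 and E2f1 had a 0 in at least 1. The header of the count column had a long form, which names RNA STAR, in control 2, 6% EtOH 1, 10% EtOH 1 and 10% EtOH 2, with totals of 19574710 to 27619281, and a short form in the other 5 libraries, with totals of 6263465 to 11026334. Since each group held both forms, values are given by header form beside the results they touch. The long form alone leaves 1 library each in control and 6% EtOH, and the short form alone leaves 1 in 10% EtOH. All 11 morula and lineage markers had counts in at least 1 library and summed to 1404 to 2815 CPM. CPM are counts relative to a common library size after scaling by TMM factors. Of these markers, Sox2 was at 0 in 6% EtOH 3 and 10% EtOH 3. The 12 oocyte and maternal markers summed to 24.7 to 72.1 CPM. The 10 cumulus and granulosa markers summed to at most 2.63 CPM and 5 of them were at 0 in every library.

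By mean level per kilobase of exon, cyclins B1 and E1 stood highest among the members in these morulae, and Cdk6 and cyclin D2 lowest. Ccnb1, cyclin B1, had a mean of 1069.7 CPM per kilobase over the 9 libraries, and Ccne1, cyclin E1, a mean of 429.6 CPM per kilobase. The order of these cyclins was not the same in each library. Per kilobase, Ccne1 stood above Ccnb1 in control 1, control 2, 6% EtOH 1 and 10% EtOH 1, and they were about level in 10% EtOH 2. Ccnb1 stood above Ccne1 in control 3, 6% EtOH 2, 6% EtOH 3 and 10% EtOH 3, all with the short header. Between the means of these cyclins and the next members lay a gap. Tpx2, an activator of Aurora A on the spindle, had 102 CPM per kilobase and Zfp207, which binds Bub3 and loads it at kinetochores, had 94.7. Cdk1, the mitotic kinase, had 88.3 CPM per kilobase. Of the MCM helicase subunits, Mcm6 had 78.4 CPM per kilobase and Mcm2 20.4. At the other end stood Ccnd1 with 0.741, Rb1, the retinoblastoma protein that holds back E2F, with 0.511, Ccnd2 with 0.344 and Cdk6 with 0.323 CPM per kilobase. In all, 38 members had 10 CPM or more in every library and 6 had a mean under 10 CPM.

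**Figure D1:**
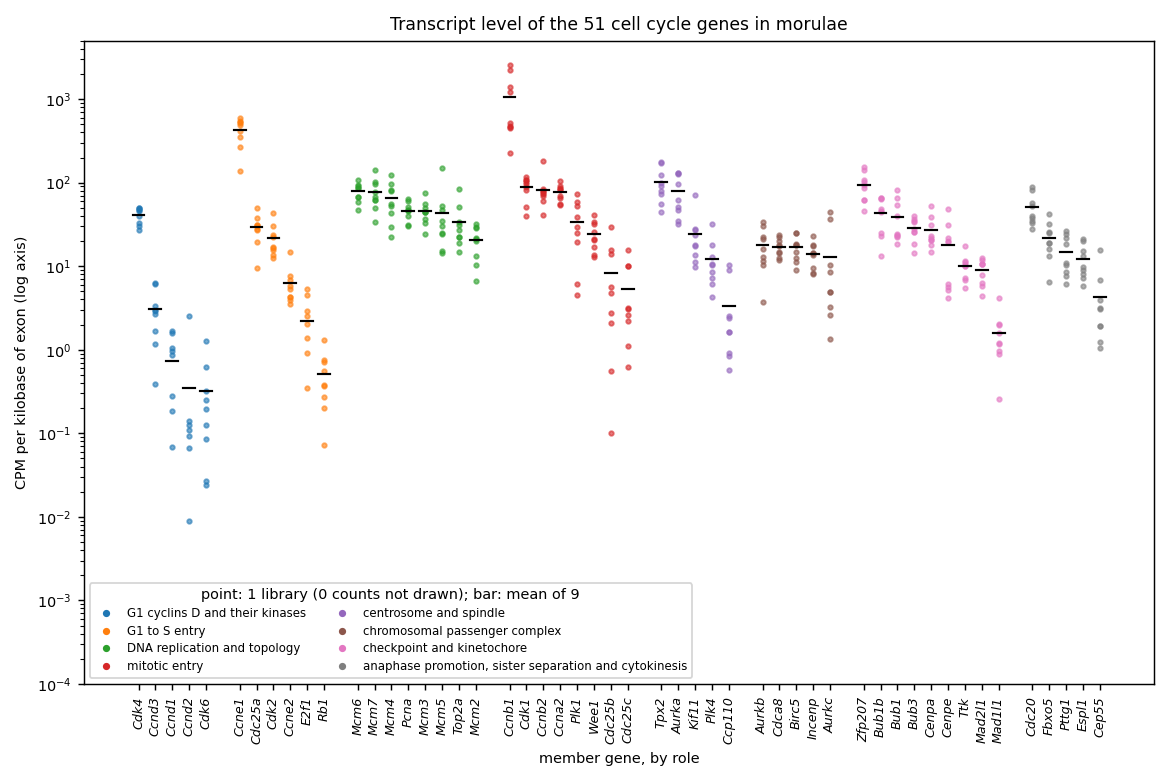
Level of each of the 51 members, in CPM per kilobase of exon on a log axis, with 1 point for each library and a bar for the mean of 9, coloured and ordered by role. By mean, Ccnb1 at 1069.7 and Ccne1 at 429.6 stand above the rest, and Cdk6 and Ccnd2 are lowest. Ccnb1 is not above Ccne1 in every library.

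Within pairs of related genes, 1 paralog dominated in most libraries. Per kilobase, Ccne1 stood above Ccne2 by 18.2 to 147 times, with a median of 92.8. Ccnb1 stood above Ccnb2 by 2.90 to 34.3 times, with a median of 7.45. Cdk4, the cyclin D kinase, stood above its paralog Cdk6 by 37.1 to 1640.4 times, although Cdk6 had few counts. The Aurora kinases of the chromosomal passenger complex did not keep 1 order, since the ratio of Aurkb to Aurkc ran from 0.280 to 7.01. Aurkc, a form known from meiosis and early embryos, lay above Aurkb in control 1 and 10% EtOH 1, and Aurkb lay above it in the other 7 libraries.

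Promoter windows were at hand in RefSeq (GRCm38.p6) for 40 of the 51 members, and they are shown for the 2 most abundant cyclins, for Zfp207, and for the 2 members of smallest p between header forms, Cenpe and Mcm5. Each is the 250 bases before the annotated start, 5′ to 3′ on the gene's strand, with CCAAT (the NF-Y box) and CHR (the cell cycle homology region, TTTGAA or TTTAAA) in capitals, on either strand. Ccnb1 lies at chr13:100786487-100786736 on the minus strand, Ccne1 at chr7:38107491-38107740 on the minus strand, Zfp207 at chr11:80383029-80383278 on the plus strand, Cenpe at chr3:135212313-135212562 on the plus strand and Mcm5 at chr8:75109259-75109508 on the plus strand.
Ccnb1: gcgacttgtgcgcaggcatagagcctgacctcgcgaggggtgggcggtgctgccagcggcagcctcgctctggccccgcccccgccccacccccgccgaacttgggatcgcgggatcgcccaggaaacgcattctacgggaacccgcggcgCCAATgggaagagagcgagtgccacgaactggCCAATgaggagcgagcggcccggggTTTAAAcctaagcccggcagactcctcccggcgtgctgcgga
Ccne1: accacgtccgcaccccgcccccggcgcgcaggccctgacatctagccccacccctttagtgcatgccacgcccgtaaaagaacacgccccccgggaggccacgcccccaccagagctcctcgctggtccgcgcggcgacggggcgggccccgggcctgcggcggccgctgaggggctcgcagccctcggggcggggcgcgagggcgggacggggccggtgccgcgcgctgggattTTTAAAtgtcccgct
Zfp207: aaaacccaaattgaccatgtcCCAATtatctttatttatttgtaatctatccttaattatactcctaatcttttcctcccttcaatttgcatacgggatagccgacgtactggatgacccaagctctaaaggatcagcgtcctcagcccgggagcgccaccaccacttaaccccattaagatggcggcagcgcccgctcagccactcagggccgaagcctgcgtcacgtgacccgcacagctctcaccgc
Cenpe: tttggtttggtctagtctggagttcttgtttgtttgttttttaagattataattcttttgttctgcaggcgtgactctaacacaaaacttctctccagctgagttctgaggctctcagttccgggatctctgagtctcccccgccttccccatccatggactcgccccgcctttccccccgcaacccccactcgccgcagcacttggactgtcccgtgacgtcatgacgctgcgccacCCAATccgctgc
Mcm5: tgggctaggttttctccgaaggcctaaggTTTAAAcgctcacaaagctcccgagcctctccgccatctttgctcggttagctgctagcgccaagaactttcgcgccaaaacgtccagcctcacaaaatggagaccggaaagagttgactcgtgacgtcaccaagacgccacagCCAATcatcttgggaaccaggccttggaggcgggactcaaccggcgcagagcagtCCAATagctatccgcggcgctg
The Ccnb1 stretch held CCAAT and CHR together, the Ccne1 stretch held a CHR and no CCAAT, and the Zfp207 stretch held a CCAAT and no CHR. The stretch of Mcm5 held both and that of Cenpe a CCAAT, with the CHR of Cenpe past the start. Motifs were searched on both strands over 300 bases, which add 50 bases after the start, and none of the motifs contains another. CCAAT was found in 28 of 40 members (70.0%) and in 37.9% of all 27025 windows. CHR was found in 22 of 40 (55.0%) and in 27.8% of all windows. Both together were found in 18 of 40 members (45.0%), among them Ccnb1, Ccnb2, Cdk1, Plk1, Bub1b and Cenpe, and in 10.9% of all windows. The E2F core GCGGGAA was found in 4 members, Cdk2, Mcm3, Mcm7 and Plk4 (10.0%), and in 4.66% of all windows. A match is a run of letters and not a shown site. The members with no window were Ccne2, Rb1, Ccna2, Incenp, Cdc25c, Ccnd2, Mcm4, Tpx2, Aurkb, Wee1 and Ccnd1.

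The first question was whether members differed between morulae of ethanol and control sires. No member passed edgeR's quasi-likelihood test with Benjamini-Hochberg adjustment at 0.05 in any of the 4 comparisons of sire groups, and neither did any other gene (background 0 percent in each). In simulated data this test recovered 1 of 50 genes changed 4-fold at 6% EtOH and 0 of 50 at 10% EtOH. The lack of calls therefore does not show a lack of change. In bulk embryos, fewer cells in a phase of the cycle and less RNA per cell cannot be told apart. At an unadjusted p under 0.05 stood 2 members for 6% EtOH (background 6.24 percent), 2 for 10% EtOH (2.14 percent), 0 for 10% against 6% EtOH (5.33 percent) and 4 for both doses together (4.08 percent). DESeq2 called 1 member, Ccp110 at 6% EtOH, among its 31 calls there. The median fold change of the members was -0.01 on the log2 scale for 6% EtOH, where 25 lay higher and 26 lower, beside -0.01 over all genes, of which 49.5 percent lay higher. For 10% EtOH the median was 0.03, with 28 higher and 23 lower, beside -0.05 and 47.1 percent higher over all genes. For 10% against 6% EtOH it was -0.10, with 23 higher and 28 lower, beside -0.02 and 49.5 percent higher over all genes. Both dose comparisons use the same 3 control libraries.

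**Figure D2:**
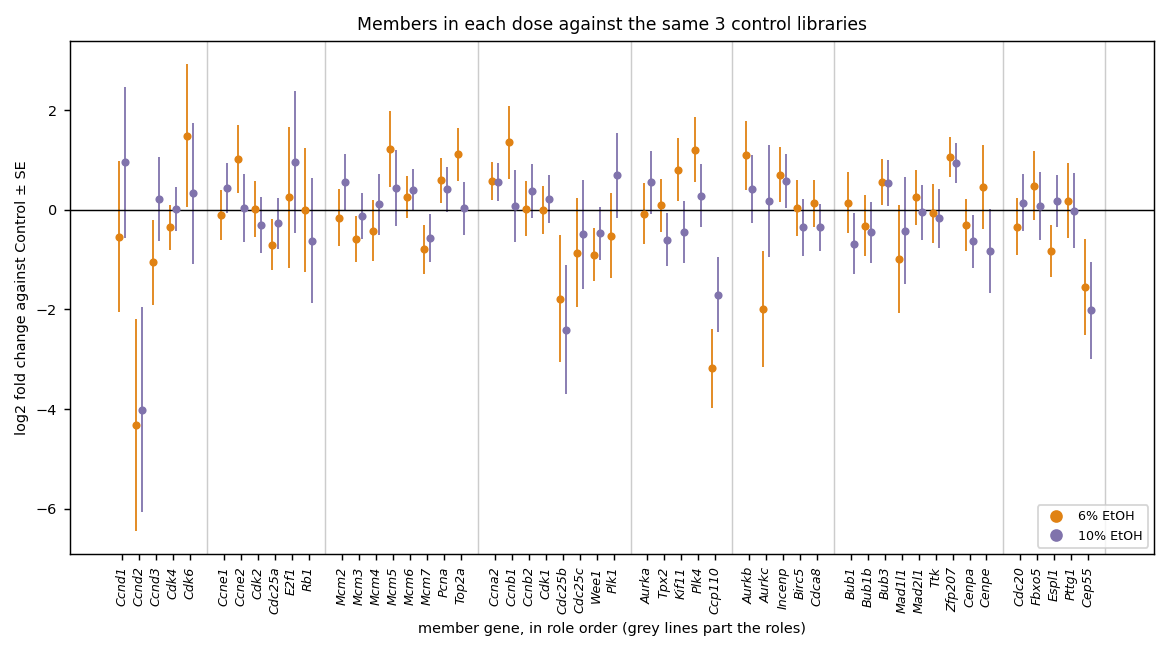
Fold change of each member on the log2 scale, with its standard error, for 6% EtOH and 10% EtOH against the same 3 control libraries, in role order. Most points lie within 1 unit of 0, and Ccnd2 and Ccp110 lie lowest for 6% EtOH, at -4.31 and -3.18.

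Members whose libraries did not overlap with the controls were few. For 6% EtOH they were 5 (9.80 percent, background 8.1 percent): Ccne2, Ccna2, Bub3 and Zfp207 lay above all controls (background 3.38 percent) and Ccp110 below (4.72 percent). For 10% EtOH they were also 5 (9.80 percent, background 8.07 percent): Ccne1, Mcm2, Ccna2 and Zfp207 lay above (4.4 percent) and Cdc25b below (3.67 percent). In 10% against 6% EtOH they were 4 (7.84 percent, background 9.67 percent), Mcm3, Ccp110, Aurkc and Espl1, all above (6.05 percent). With both doses pooled, Zfp207 and Ccna2 were the 2 members (3.92 percent, background 1.79 percent in either direction and 0.769 percent above) in which all 6 ethanol libraries lay above all 3 controls.

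**Figure D3:**
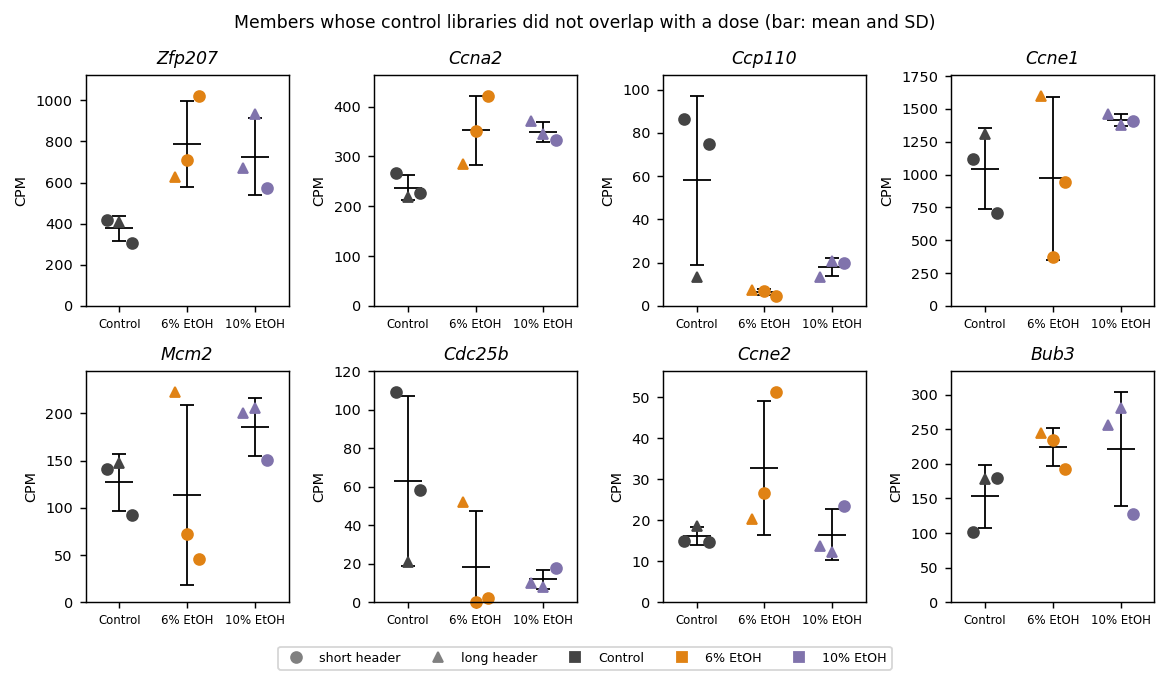
CPM of 8 members in each library by sire group, with the mean and SD (cut at 0); triangles mark the long header form. In Zfp207 and Ccna2 all 6 ethanol libraries lie above the 3 control libraries, and in Ccp110 the 6% EtOH libraries lie below all of them.

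**Figure D4:**
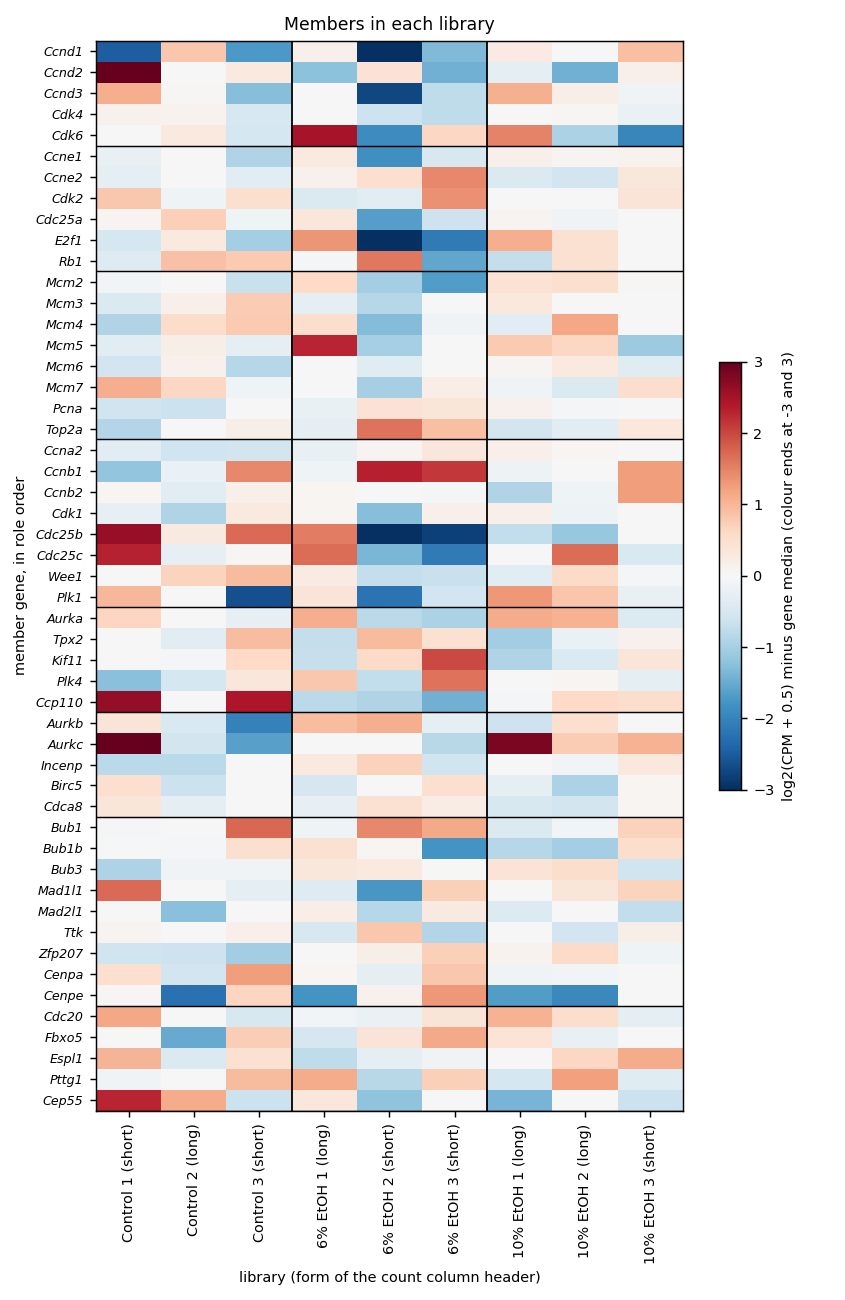
Each member in each library as log2(CPM + 0.5) minus the median of that gene over the 9 libraries, in role order, with colours ending at -3 and 3. Control 1 is the highest library for 12 members, Ccnd2, Aurkc and Cep55 among them, and the mitotic entry row Ccnb1 is highest in 6% EtOH 2 and 6% EtOH 3.

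The D cyclins and their kinases, which start the cycle, were mostly low. Cdk4, the abundant kinase, had 163, 161 and 107 CPM in the control libraries, 152, 97.7 and 88.1 CPM in the 6% EtOH libraries and 149.8, 156 and 129.6 CPM in the 10% EtOH libraries. The groups overlapped. Ccnd2, cyclin D2, had 24.1, 0.864 and 1.17 CPM in the controls, 0.0844, 1.33 and 0 CPM at 6% EtOH and 0.626, 0 and 1.02 CPM at 10% EtOH, so that control 1 alone was above 1.33 CPM. Its fold change for both doses was -4.16 ± 1.59 (SE) on the log2 scale and -1.05 without control 1. Ccnd1 ranged from 0 to 7.94 CPM, Ccnd3 from 3.42 to 55.0 CPM and Cdk6 from 0.340 to 17.6 CPM. Of the 5 genes, 1 lay higher at 6% EtOH (median -0.54) and 4 at 10% EtOH (median 0.22). Long header libraries against short ones had 4 higher (median 0.72).

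Genes of the G1 to S step were led by cyclin E1, which activates Cdk2. Ccne1 had 1118, 1312 and 706 CPM in the controls, 1601, 368 and 940.3 CPM at 6% EtOH and 1464, 1379 and 1404 CPM at 10% EtOH. The 10% EtOH libraries lay together above all controls (1416 ± 43.5, SD, n = 3, against 1045 ± 309.5), and the 6% EtOH libraries held both the highest and the lowest value. Its fold change at 10% EtOH was 0.44 ± 0.50 on the log2 scale, 0.22 without control 3, 0.28 with header form as a term and 0.11 in the long header libraries alone. Ccne2, cyclin E2, had 15.0, 18.6 and 14.8 CPM in the controls, 20.4, 26.6 and 51.3 CPM at 6% EtOH and 13.7, 12.3 and 23.6 CPM at 10% EtOH. It was above the controls in each 6% EtOH library, by 1.02 ± 0.69 on the log2 scale, by 0.50 without 6% EtOH 3, and by 0.14 in the long header libraries alone, where 6% EtOH 1 had 20.4 CPM and control 2 had 18.6 CPM. Ints8 overlaps Ccne2 on the opposite strand and had 55.2 to 146 CPM, and whether the counting used strand is not stated. Cdk2 ranged from 77.3 to 273 CPM, Cdc25a, a phosphatase that activates it, from 76.1 to 395 CPM, the transcription factor E2f1 from 0 to 17.0 CPM and Rb1 from 0.439 to 7.80 CPM.

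Replication genes overlapped between the groups apart from Mcm2 at 10% EtOH and, between the doses, Mcm3. Mcm6, part of the helicase that opens the double strand, had 271, 441 and 223 CPM in the controls, 405, 311 and 403 CPM at 6% EtOH and 427, 498 and 314 CPM at 10% EtOH, and the groups overlapped. Mcm2, another subunit, had 141, 148 and 92.5 CPM in the controls, 223, 72.3 and 46.2 CPM at 6% EtOH and 200.3, 206 and 151 CPM at 10% EtOH. Each 10% EtOH library of Mcm2 was above each control, by 0.55 ± 0.58 on the log2 scale, by 0.36 without control 3 and by 0.23 with header form as a term, and the 6% EtOH libraries lay on both sides. Top2a, topoisomerase II alpha, which untangles chromosomes before they separate, had 135, 247 and 281 CPM in the controls, 203, 762 and 466 CPM at 6% EtOH and 169, 199.9 and 306 CPM at 10% EtOH. Its highest values were in 6% EtOH 2 and 6% EtOH 3, both with the short header, and its fold change of 1.11 ± 0.53 on the log2 scale at 6% EtOH was 0.59 without 6% EtOH 2 and -0.28 in the long header libraries alone. Mcm3 ranged from 92.4 to 282 CPM, Mcm4 from 81.0 to 444 CPM, Mcm7 from 149 to 633 CPM and the sliding clamp Pcna from 71.8 to 152 CPM. Of the 8 genes, 4 lay higher at 6% EtOH (median 0.05) and 6 at 10% EtOH (median 0.26). In the long against the short header libraries 5 lay higher (median 0.29).

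Mitotic entry genes held the member of highest mean level, Ccnb1, which was uneven between libraries. Ccnb1 had 963, 1898 and 5949 CPM in the controls, 1998, 10944 and 9529 CPM at 6% EtOH and 1948, 2183 and 5185 CPM at 10% EtOH. The highest libraries were 6% EtOH 2 and 3, then control 3 and 10% EtOH 3, all with the short header, and the groups overlapped. Its fold change at 6% EtOH was 1.35 ± 0.73 on the log2 scale. The pseudogene Ccnb1-ps, a near copy that can share reads, ran from 56.6 CPM in control 1 to 1319 CPM in 6% EtOH 2, and its highest values, of 596 CPM or more, were in the same 4 libraries. Its part in the Ccnb1 counts was not tested. Cyclin A2 was steadier. Ccna2 had 266, 219.5 and 227 CPM in the controls, 284, 350.4 and 422 CPM at 6% EtOH and 371, 344 and 333 CPM at 10% EtOH. Its means were 238 ± 24.9 (SD, n = 3), 352 ± 69.2 and 349 ± 19.7 CPM, all 6 ethanol libraries were above the controls, and the fold changes were 0.57 ± 0.38 and 0.56 ± 0.38 on the log2 scale, neither past the test. At 6% EtOH the value was 0.27 with library size alone as the scaling and 0.37 in the long header libraries alone. In the long header form control 2 had 219.5 CPM and the ethanol libraries 284, 344 and 371 CPM. In the short form the controls had 266 and 227 CPM and the ethanol libraries 333, 350.4 and 422 CPM. Since all 6 ethanol libraries were above the controls, the order within each form was fixed and is no separate check. Exosc9 overlaps Ccna2 on the opposite strand and had 59.7 to 99.7 CPM, highest in control 3.

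Cdc25b, a phosphatase that switches on Cdk1, had 109, 21.2 and 58.2 CPM in the controls, 52.1, 0.380 and 2.08 CPM at 6% EtOH and 10.3, 7.77 and 17.6 CPM at 10% EtOH. The 10% EtOH libraries all lay below the controls, by -2.41 ± 1.30 on the log2 scale and by -1.24 in the long header libraries alone, and 6% EtOH 1 lay among the controls. In the 5 short header libraries alone, where 6% EtOH had 0.380 and 2.08 CPM, Cdc25b passed the test for 6% EtOH, at -6.04 on the log2 scale with an adjusted p of 0.0333. The 0.380 CPM of Cdc25b in 6% EtOH 2 was under the 0.570 CPM that 3 counts make in that library, so the size of this change is uncertain. In the long header form the order was the other way, with 6% EtOH 1 at 52.1 CPM and control 2 at 21.2 CPM. Spef1 overlaps Cdc25b on the opposite strand. Cdk1 ranged from 198 to 584 CPM, Ccnb2 from 62.2 to 276 CPM, Cdc25c, another such phosphatase, from 3.07 to 76.5 CPM, the opposing kinase Wee1 from 43.9 to 142 CPM and Plk1, a mitotic kinase, from 9.94 to 159 CPM. In the 8 genes, 3 lay higher at 6% EtOH (median -0.27) and 5 at 10% EtOH (median 0.15). By header form, 4 lay higher in the long header libraries (median 0.16).

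Spindle and centrosome genes included the member with the smallest p in 2 of the 4 comparisons. Ccp110, which caps the end of centrioles and holds back cilia, had 86.3, 13.6 and 74.7 CPM in the controls, 7.47, 7.04 and 4.72 CPM at 6% EtOH and 13.3, 20.7 and 19.7 CPM at 10% EtOH. Controls 1 and 3 stood high, control 2 did not, and the 6% EtOH libraries were all below the controls while the 10% EtOH libraries overlapped with control 2. Its fold changes were -3.18 ± 0.80 at 6% EtOH, -1.70 ± 0.75 at 10% EtOH and -2.44 ± 0.61 for both on the log2 scale. By edgeR's quasi-likelihood test the p was 0.00171 at 6% EtOH and 0.799 after Benjamini-Hochberg adjustment, and by DESeq2 the adjusted p was 0.00918. The high controls were short header libraries, and in the long header libraries alone the fold changes shrank to -0.86 at 6% EtOH and -0.27 for both doses and turned to 0.32 at 10% EtOH. That form held only control 2, at 13.6 CPM, and 6% EtOH 1, at 7.47 CPM, for the 6% EtOH value. Within the short form the controls had 86.3 and 74.7 CPM, the 6% EtOH libraries 7.04 and 4.72 CPM, and 10% EtOH 3 had 19.7 CPM. Tpx2 had 427, 340.0 and 809.7 CPM in the controls, 258, 831 and 584 CPM at 6% EtOH and 206, 372 and 464 CPM at 10% EtOH. Kif11, the motor that pushes spindle poles apart, had 135, 130.4 and 205 CPM in the controls, 83.8, 202 and 535 CPM at 6% EtOH and 72.0, 100.3 and 174 CPM at 10% EtOH. The 10% against 6% EtOH value of Kif11 was -1.25 ± 0.64 on the log2 scale, -0.25 without 6% EtOH 3 and 0.03 in the long header libraries alone. Aurka ranged from 80.6 to 335 CPM and Plk4, the kinase that starts centriole duplication, from 29.0 to 219 CPM.

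The chromosomal passenger complex corrects wrong attachments of the spindle. Cdca8, its subunit borealin, had 115, 73.6 and 89.4 CPM in the controls, 75.7, 123 and 105 CPM at 6% EtOH and 64.2, 60.7 and 93.0 CPM at 10% EtOH, and the groups overlapped. Incenp, the scaffold, ranged from 35.2 to 100.4 CPM, Birc5, survivin, from 30.8 to 85.7 CPM, Aurkb from 11.1 to 101 CPM and Aurkc from 2.05 to 67.6 CPM. Of these 5 genes, 4 lay higher at 6% EtOH (median 0.13) and 3 at 10% EtOH (median 0.18). By header form, 1 lay higher in the long header libraries (median -0.24).

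In the checkpoint, Zfp207 stood above its controls in every ethanol library. It had 417, 407 and 307 CPM in the controls, 628, 712 and 1024 CPM at 6% EtOH and 672, 935 and 572 CPM at 10% EtOH. The lowest ethanol library, 10% EtOH 3, was above the highest control. Its means were 377 ± 61.2 (SD, n = 3), 788 ± 208 and 726 ± 187 CPM. The fold changes on the log2 scale were 1.06 ± 0.40 at 6% EtOH, 0.94 ± 0.40 at 10% EtOH and 1.003 ± 0.36 for both, and the value at 6% EtOH was 0.63 in the long header libraries alone. The p of edgeR's quasi-likelihood test was 0.0204, 0.0351 and 0.0157, and none passed Benjamini-Hochberg adjustment over all genes (adjusted p of 0.799, 0.9999 and 0.999). Since every ethanol library of Zfp207 was above every control, its order within each header form was fixed and is no separate check. Within the long header form control 2 had 407 CPM and the ethanol libraries 628, 672 and 935 CPM. Within the short form the controls had 417 and 307 CPM and the ethanol libraries 712, 1024 and 572 CPM. Its partner Bub3 had 101, 179 and 179.9 CPM in the controls, 245, 235 and 193 CPM at 6% EtOH and 257, 281 and 128 CPM at 10% EtOH. Bub3 was above all controls at 6% EtOH and not at 10% EtOH, where 10% EtOH 3 had 128 CPM, with fold changes of 0.55 ± 0.46 and 0.53 ± 0.46 on the log2 scale. Without control 1 the value of Bub3 at 6% EtOH was 0.31, and with library size alone as the scaling it was 0.28. The checkpoint kinases Bub1 and Ttk ranged from 79.4 to 355 and from 26.9 to 86.9 CPM, Bub1b, which restrains the anaphase promoting complex, from 56.3 to 283 CPM, Mad2l1 from 37.0 to 106 CPM and its recruiter Mad1l1 from 0.951 to 15.2 CPM. Cenpa, the centromeric histone, ranged from 86.4 to 308 CPM. Of the 9 genes, 5 lay higher at 6% EtOH (median 0.14) and 2 at 10% EtOH (median -0.42). Of the same 9 genes, 7 lay lower in the long than in the short header libraries (median -0.41). The long form was held by 10% EtOH 1 and 10% EtOH 2 but, among the controls, by control 2 alone. The part of header form in the medians by role was not tested.

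For anaphase and division of the cell, Espl1, separase, which cuts cohesin between sisters, had 173, 62.9 and 117 CPM in the controls, 50.2, 70.2 and 79.1 CPM at 6% EtOH and 84.8, 131 and 183 CPM at 10% EtOH. The 10% EtOH libraries lay above the 6% EtOH libraries by 1.003 ± 0.53 on the log2 scale, and both overlapped with the controls. Cep55, which acts in the last cut between daughter cells, had 45.5, 20.1 and 5.55 CPM in the controls, 11.5, 3.61 and 9.10 CPM at 6% EtOH and 3.08, 8.97 and 5.56 CPM at 10% EtOH. Its fold change at 10% EtOH was -2.01 ± 0.97 on the log2 scale, and -1.13 without control 1, the highest library. Cdc20, which activates the anaphase promoting complex, ranged from 52.8 to 166 CPM, Fbxo5, an inhibitor of it, from 13.0 to 84.0 CPM and Pttg1, securin, from 12.2 to 52.5 CPM. Of these 5 genes, 2 lay higher at 6% EtOH (median -0.34) and 3 at 10% EtOH (median 0.08). By header form, 3 lay higher in the long header libraries (median 0.08).

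Header form went with separated values for some members, spindle, kinetochore and replication genes among them. In a fit with header form beside sire group, no member passed edgeR's quasi-likelihood test with Benjamini-Hochberg adjustment (background 0.104 percent), and 8 stood at an unadjusted p under 0.05 (15.7 percent, background 14.8 percent). Values did not overlap between the forms in 8 members (15.7 percent, background 9.08 percent), 3 above (4.31 percent) and 5 below (4.77 percent). Cenpe, the kinetochore motor that moves chromosomes to the spindle equator, had 173, 35.8 and 266 CPM in the controls, 48.7, 186 and 417 CPM at 6% EtOH and 53.1, 44.2 and 170.0 CPM at 10% EtOH. Every long header library had at most 53.1 CPM and every short one at least 170.0 CPM, a difference of -2.36 ± 0.44 on the log2 scale with an adjusted p of 0.0753. Mcm5, another helicase subunit, had 98.0, 137 and 99.1 CPM in the controls, 596, 60.8 and 122 CPM at 6% EtOH and 209, 188 and 56.7 CPM at 10% EtOH. The long header libraries stood at 137 CPM or more and the short at 122 CPM or less, a difference of 1.76 ± 0.46 on the log2 scale with an adjusted p of 0.146, which was 1.16 without 6% EtOH 1. Ccnb1 was lower in the long header libraries by -1.47 ± 0.50 on the log2 scale with an adjusted p of 0.233, although control 1, a short header library, was its lowest. Tpx2, Kif11, Birc5 and Cdca8 were also below, and E2f1 and Mcm6 above, in every long header library. Depth and the morula marker sum moved with header form: the markers summed to 2376 to 2815 CPM in the long and to 1404 to 1841 CPM in the short header libraries. The 2-cell stage markers, of which 6 were detected, summed to 0.0844 to 5.47 CPM in the long and to 21.2 to 549.5 CPM in the short header libraries, highest in 10% EtOH 3. Their part in the differences was not tested.

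**Figure D5:**
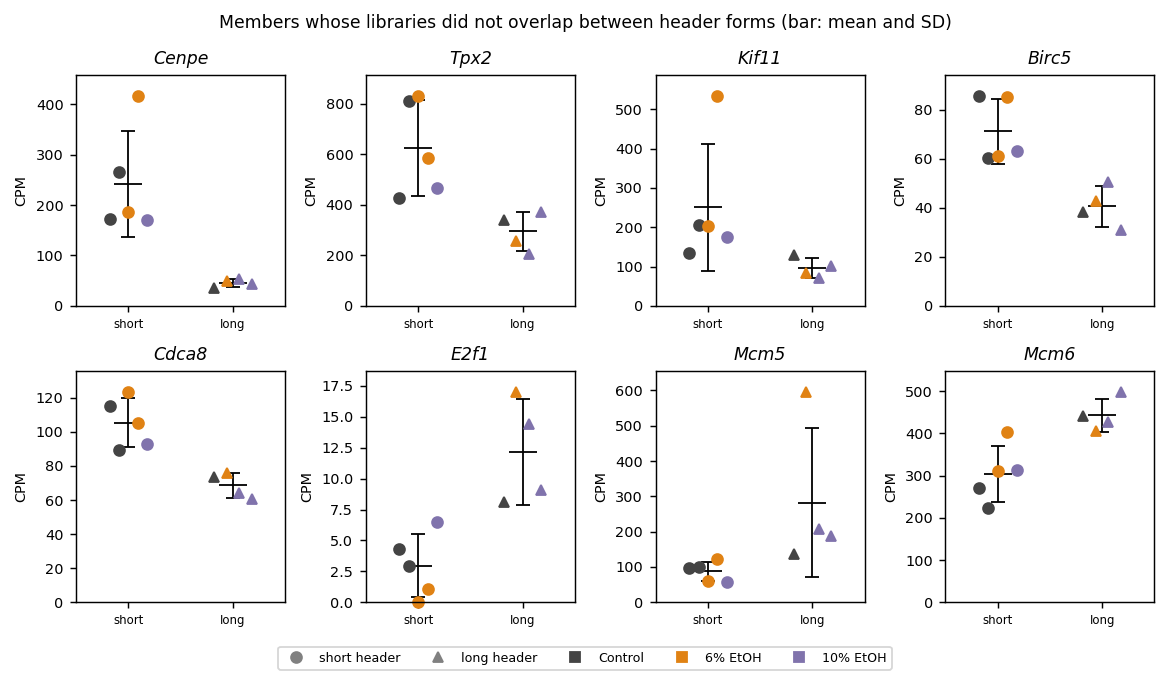
CPM of the 8 members whose libraries did not overlap between the header forms, with the mean and SD (cut at 0); colour gives the sire group. Cenpe has at most 53.1 CPM in the 4 long header libraries and at least 170.0 CPM in the 5 short header libraries.

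Across the 51 members, the library profiles were most alike between long header libraries. Pearson's r of log2(CPM + 0.5) was 0.915 to 0.948 over the 6 pairs of long header libraries, 0.763 to 0.919 over the 10 pairs of short header libraries and 0.768 to 0.939 over the 20 mixed pairs. Pairs from the same sire group had a median of 0.892 and pairs from different groups 0.874. These are correlations across genes, which share depth and abundance and are not replicates.

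The wider cell cycle was read in 7 lists of 133 other genes, of which 130 were tested. No gene of these lists passed the test for 6% or 10% EtOH. At an unadjusted p under 0.05 stood 10 at 6% EtOH (7.69 percent, background 6.24 percent) and 2 at 10% EtOH (1.54 percent, background 2.14 percent), with median fold changes of 0.04 and -0.10 on the log2 scale. E2f4, a repressive E2F that works with the pocket proteins, had the smallest p of its list at 6% EtOH, with 202, 141 and 50.1 CPM in the controls, 78.0, 1393 and 1497 CPM at 6% EtOH and 104, 159 and 112 CPM at 10% EtOH. The 2 high libraries were 6% EtOH 2 and 3, and 6% EtOH 1 lay among the controls, so that the groups overlapped. Its fold change was 2.92 ± 0.86 on the log2 scale. Smc3, a cohesin subunit, had a fold change of 1.83 ± 0.74 at 6% EtOH, with 80.0, 48.6 and 65.2 CPM in the controls and 44.5, 191 and 454 CPM at 6% EtOH. Here too 6% EtOH 2 and 3 were the high libraries, and 6% EtOH 1 lay below every control. Ckap5, a spindle microtubule protein, had fold changes of -1.18 ± 0.54 at 6% EtOH and -1.08 ± 0.54 at 10% EtOH on the log2 scale. Its controls had 65.4, 90.1 and 148 CPM. The 6% EtOH libraries had 35.8, 43.4 and 54.8 CPM and the 10% EtOH libraries 31.6, 60.2 and 52.2 CPM, all below. Anapc10 had a log2 fold change of 1.003 ± 0.40 at 6% EtOH, with 161, 148 and 247 CPM in the controls. Its ethanol libraries lay above these, at 324, 372 and 419 CPM for 6% EtOH and 259, 260 and 309 CPM for 10% EtOH. Over all genes, 1.79 percent had no overlap between both doses and the controls. Between header forms the 7 lists differed in direction, beside 46.8 percent of all genes lower in the long header libraries. The genes lower there were 13 of 16 in the spindle, midzone and cytokinesis list, 16 of 21 in the cohesin and condensin list and 12 of 17 in the origin licensing and firing list, against 14 of 25 in the kinetochore list, 6 of 12 in the mitotic kinase list, 8 of 22 in the list of CDK inhibitors, pocket proteins and E2F and 5 of 17 in the anaphase promoting complex.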

How the data were processed

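Total RNA of mouse morulae was sequenced in 9 libraries. The authors deposited raw counts per gene for each library, made with featureCounts against GRCm39 (mm39), per the submitters' processing notes, where DESeq2 is listed too. RNA STAR appears in the count column of 4 files, per the file headers. The aligner of the other 5, the annotation and the strand setting are not given in the sources used here. No library was a copy of another: in all 36 pairs the chi-square over its degrees of freedom was 116 or more.

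Low genes were removed by filterByExpr in edgeR (groups given, minimum count 10) and libraries were scaled by TMM. The quasi-likelihood fit used all 9 libraries with the 3 groups as its terms, plus header form for that comparison. Standard errors of fold changes were worked back from the test, as the size of the fold change over the square root of F. P-values were adjusted by Benjamini-Hochberg over 12488 genes and compared with 0.05. Levels per kilobase used union exon lengths of GENCODE M21, an annotation of another build, for length only. By that annotation 17 members share exon sequence with another gene, 16 of them on the opposite strand, and their counts are uncertain.

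Values in every library were given for Zfp207, the most abundant member of each role, the 3 members of smallest p in each comparison, and members at 10 CPM or more in a group whose libraries did not overlap between controls and a dose. In the wider lists the gene of smallest p in each list and dose comparison could be named. The members and lists were chosen with earlier results of these data known. The scripts were checked on simulated data. Of 50 genes changed 4-fold, the test recovered 1 for 6% EtOH and 0 for 10% EtOH. Of 50 changed 16-fold, it recovered 23 and 25. A planned search of protein degrons was not done, for lack of protein sequences. Fits were run in R 4.3.3 with edgeR 4.0.16, with DESeq2 1.42.0 and limma 3.58.1 (voom) as alternatives. Precision rests on 3 libraries a group, and the common biological coefficient of variation was 0.911.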

Additional observations from a re-analysis of the deposited data

How the results depend on the processing

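With no filter on low counts, edgeR called 140 genes for 6% EtOH, 47 for 10% EtOH, 147 for 10% against 6% EtOH, 153 for both doses and 504 for header form. DESeq2 called 31, 10, 34, 17 and 1027 in the same order. Among short header libraries alone the counts were 48, 2, 1 and 5 for the sire comparisons, and among long header libraries 3, 9, 4 and 13. Several of these arms hold 1 library, which is then assumed to vary like the other groups. For header form, 304 genes were called by limma voom with quality weights, 45 at a threshold of 0.1, 56 with no group term, and 0 to 30 when each library was left out, against 13 in the test as reported. The causes were not tested. A member was called in 2 of the 22 alternatives for 6% EtOH, Ccp110 by DESeq2 and Cdc25b in the short header libraries, and in 0 of the 22 for 10% EtOH. For header form Cenpe, Mcm5 or Ccnb1 passed in 6 of 19.

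Zfp207 kept its direction in all 22 alternatives in each dose comparison and passed in none. Its values ran from 0.63 to 1.25 at 6% EtOH and from 0.65 to 1.101 at 10% EtOH on the log2 scale. The threshold of 0.1 is among the 22 and refits nothing. As every ethanol library lay above every control, leaving out a library could hardly turn the sign, so the count adds little. In the long header libraries alone Top2a at 6% EtOH was -0.28, Ccp110 at 10% EtOH 0.32 and Kif11 in 10% against 6% EtOH 0.031, each with the sign turned. Control and 6% EtOH each rest on 1 library there. Scaling by library size alone moved the median of all genes by -0.28 at 6% EtOH and put 61.4 percent of genes lower in place of 50.5 percent. For both doses it put 62.1 percent lower in place of 51.4 percent. The members' median was then -0.27 at 6% EtOH and -0.32 for both doses. Leaving out 1 library at a time gave members' medians of -0.23 (without 6% EtOH 1) to 0.14 (without control 1) at 6% EtOH, -0.12 to 0.11 at 10% EtOH, -0.12 to 0.24 (without 6% EtOH 1) for 10% against 6% EtOH and -0.13 to 0.21 (without control 1) for both doses. No paired analysis was possible because the replicate numbers follow accession order and pair nothing. With 3 libraries a group the median standard error for 6% EtOH was 1.02 on the log2 scale over all genes and 0.61 over the members.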
